A study of Mus musculus with 6 samples.

Results

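Epithelial cells move salt and water with a shared set of channels and pumps, and 9 genes of that set were described here: the water channels Aqp1, Aqp3 and Aqp4, the sodium channel subunits Scnn1a, Scnn1b and Scnn1g, the chloride channels Cftr and Ano1, and the sodium pump subunit Atp1b1. They were chosen by name, each through array rows annotated to that gene alone, and all 9 were found, with 1 row each, among 22179 genes. The samples were sorted cells of mouse small-cell lung cancer, a neuroendocrine lung tumour. Intratracheal Adeno-Cre had induced the tumours in Rb/p53/p130 conditional knockout mice, which also carried a GFP reporter for Hes1, a repressor gene that Notch signals switch on. GFP-high cells (3 arrays) and GFP-negative cells (3 arrays, labelled negative or low for GFP) were sorted from tumours taken 5 to 6 months after Cre, so both groups share the 3 conditional alleles, the reporter and the treatment. Tumours were pooled, from 3 mice per the treatment protocol, while the source labels speak of a mouse. The labels do not give which replicates came from separate pools, the gates, the promoter driving Cre or any depletion of blood and stromal cells, so p-values measure the spread between these samples, which may be technical.

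Sodium enters airway and alveolar cells at the apical side through the epithelial sodium channel, ENaC, which is built from alpha, beta and gamma subunits. The Na,K-ATPase pumps it out at the basolateral side, and water follows through aquaporins and between cells. CFTR, opened by cyclic AMP signalling, and ANO1, opened by calcium, release chloride in the other direction, so the balance of absorption and secretion sets the depth of the liquid that lines the lung. Expression was read on Affymetrix Mouse Gene 2.0 ST arrays as log2 values, which the authors computed by RMA, a method that removes background and equalises arrays. Values of 1 gene can be compared between arrays, but not values of different genes. Array values below are listed for replicates 1, 2 and 3 in turn, and ± beside a log2 fold change is its SE (n = 3 per group).

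All 9 genes were higher in GFP-high cells at an adjusted p under 0.05 (limma, Benjamini-Hochberg over all genes), and none was lower. Over all genes 13.0% were called higher. The 3 GFP-high values lay above the 3 GFP-negative values for each of the 9, as they did for 20.0% of all genes. The members were picked with earlier results of these arrays known, so their counts describe them and test nothing. Their log2 fold changes ran from 0.79 to 5.07 with a median of 1.43, against a median of 0.01 over all genes, and 7 of the 9 were at or above 1. Hes1, the gene the sort reports, read 10.40 ± 0.11 on GFP-high and 6.85 ± 0.18 on GFP-negative arrays (SD, n = 3 each). In sorted bulk samples, more cells of a type and more RNA per cell cannot be told apart.

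**Figure D1:**
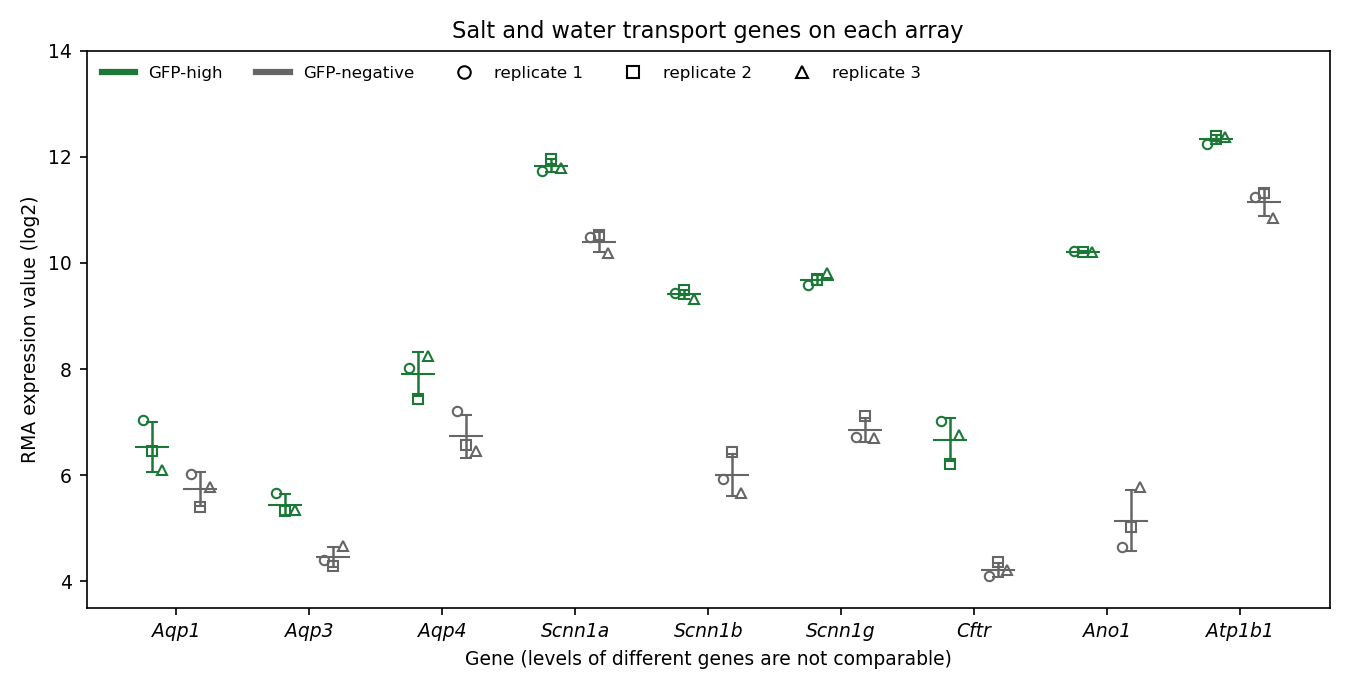
RMA expression values (log2, vertical axis) of the 9 genes on each of the 6 arrays, GFP-high in green and GFP-negative in grey, with bars for the mean and SD of 3 arrays and a symbol for each replicate. For every gene the 3 GFP-high symbols sit above the 3 GFP-negative ones, by a wide gap for Ano1 (10.20 to 10.23 against 4.64 to 5.78) and a narrow one for Aqp1 (6.09 to 7.03 against 5.40 to 6.03).

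The subunits of ENaC were all higher, with the smallest estimate for Scnn1a. Scnn1b, the beta subunit, read 9.43, 9.48 and 9.32 in GFP-high cells, against 5.92, 6.44 and 5.66 in GFP-negative cells. The lowest GFP-high array was 2.87 above the highest GFP-negative one, and the change was 3.40 ± 0.19 on the log2 scale, or 10.6-fold (log2 fold change ± SE; adjusted p = 4.79e-06 by limma). Scnn1g, the gamma subunit, read 9.59, 9.67 and 9.80 in GFP-high cells, against 6.72, 7.11 and 6.71 in GFP-negative cells, and rose by 2.84 ± 0.14 or 7.17-fold (adjusted p = 2.42e-06 by limma). Scnn1a, the alpha subunit, which the channel needs to conduct, read 11.73, 11.96 and 11.79 in GFP-high cells, against 10.49, 10.54 and 10.18 in GFP-negative cells. Its groups were also apart, and its rise was 1.43 ± 0.13 or 2.69-fold (adjusted p = 9.56e-05 by limma). The 95% interval for Scnn1a, 1.12 to 1.73, ended below those for Scnn1g (2.52 to 3.17) and Scnn1b (2.97 to 3.83). The difference between subunits was not tested, and probes of different genes can compress folds differently.

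Scnn1g and Scnn1b are neighbouring protein-coding genes on the same strand of chromosome 7 in RefSeq's table, with a long non-coding RNA gene between them, whereas Scnn1a lies on another chromosome. The starts of both are shown because the neighbours moved together, beside those of Ano1 and Cftr, the other members among the 4 largest changes. Each stretch runs from 250 bases before to 50 bases after the start of the gene, 5′ to 3′ on the gene's own strand, as given by RefSeq for GRCm38.p6. Capitals mark matches on either strand to 5 short motifs: TGGGAA (the core bound by RBPJ, the DNA-binding partner of Notch), CACGCG and CACNAG (sites bound by Hes repressors), GGAATG (the core bound by TEAD factors) and TGTTTAC (a core bound by FOXA factors).
Scnn1g, chr7:121734229-121734528, plus strand: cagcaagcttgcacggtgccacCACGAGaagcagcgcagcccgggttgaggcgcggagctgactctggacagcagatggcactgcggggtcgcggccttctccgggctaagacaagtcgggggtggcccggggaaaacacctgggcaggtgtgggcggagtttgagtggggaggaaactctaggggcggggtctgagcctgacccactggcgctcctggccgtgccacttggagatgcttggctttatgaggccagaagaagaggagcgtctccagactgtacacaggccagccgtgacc
Scnn1b, chr7:121864788-121865087, plus strand: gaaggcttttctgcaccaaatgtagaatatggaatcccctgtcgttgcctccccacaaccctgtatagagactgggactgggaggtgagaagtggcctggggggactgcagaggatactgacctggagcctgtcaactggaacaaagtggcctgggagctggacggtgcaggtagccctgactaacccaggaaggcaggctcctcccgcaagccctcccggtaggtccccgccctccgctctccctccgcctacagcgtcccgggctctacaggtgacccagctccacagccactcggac
Ano1, chr7:144738524-144738823, minus strand: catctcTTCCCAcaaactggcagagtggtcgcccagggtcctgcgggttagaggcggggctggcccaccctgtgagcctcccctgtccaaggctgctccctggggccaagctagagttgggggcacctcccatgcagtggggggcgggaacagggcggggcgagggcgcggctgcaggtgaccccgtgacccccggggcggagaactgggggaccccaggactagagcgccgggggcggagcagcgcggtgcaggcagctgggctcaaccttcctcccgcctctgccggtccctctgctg
Cftr, chr6:18170437-18170736, plus strand: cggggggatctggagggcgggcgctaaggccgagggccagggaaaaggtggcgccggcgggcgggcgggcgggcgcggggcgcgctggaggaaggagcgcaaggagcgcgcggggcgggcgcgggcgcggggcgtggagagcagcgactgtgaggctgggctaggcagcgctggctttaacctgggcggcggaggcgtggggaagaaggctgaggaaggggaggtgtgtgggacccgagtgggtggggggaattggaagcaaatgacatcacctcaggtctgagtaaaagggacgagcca
Such stretches were read for 7 of the 9 genes. RefSeq's table gave none for Scnn1a, and Aqp4 was left out of this reading. TGGGAA was found in 2 of the 7 (Ano1 and Aqp1), and in 25.6% of 32817 promoter stretches of the same length. CACNAG was found in 3 of the 7 (Scnn1g, Aqp1 and Aqp3), against 42.5% of all stretches. The remaining motifs were in 0 of the 7. Over all stretches, CACGCG was in 9.26%, the TEAD core in 14.7% and the FOXA core in 3.65%. The G and C content of these 7 stretches, with Aqp4 and Scnn1a not among them, ran from 61.7% in Scnn1b to 71.7% in Ano1. Over all stretches the median was 52.7% and the upper quartile 61.7%, the same as in Scnn1b. Whether such content is particular to these genes was not tested. CpG counts varied among them, with 31 in Cftr and in Atp1b1, 21 in Aqp3, 18 in Scnn1g and in Ano1, 10 in Scnn1b and 8 in Aqp1 (median over all stretches 7). A match is a run of letters and not a bound site.

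Both chloride channels were higher. Ano1, the calcium-activated channel also known as TMEM16A, read 10.23, 10.20 and 10.20 in GFP-high cells, against 4.64, 5.02 and 5.78 in GFP-negative cells. Its GFP-high arrays nearly coincided (SD 0.02), while its GFP-negative arrays had the widest spread of the 9 genes (SD 0.58). The rise was 5.07 ± 0.25 on the log2 scale, 33.6-fold with a 95% interval of 22.6 to 49.9 (adjusted p = 2.28e-06 by limma), and 21 genes of the 22179, Ano1 included, had a log2 fold change at least as high. Cftr, the channel mutated in cystic fibrosis, read 7.02, 6.22 and 6.76 in GFP-high cells, against 4.09, 4.36 and 4.21 in GFP-negative cells. Its groups were 1.86 apart at their nearest arrays, and it rose by 2.45 ± 0.20 or 5.45-fold (adjusted p = 4.20e-05 by limma). The values used here carry no detection call, so whether a gene as dim as Cftr in GFP-negative cells (mean 4.22) was above background is not known, and low RMA values can compress a fold. Cftr is known to be abundant in pulmonary ionocytes, a rare airway cell defined by the transcription factor Foxi1. Of 6 ionocyte markers 1 rose (Atp6v1c2, 3.58 ± 0.12), 1 fell (Stap1, -0.49 ± 0.14) and 4 did not pass. Foxi1 was among these, with a log2 fold change of 0.16 ± 0.13 (adjusted p = 0.426 by limma), as was Ascl3 (-0.17 ± 0.14). Ascl3, Stap1 and Moxd1 were dim as well, with means in both groups below 4.75, the cut for the lowest 30% of genes. The part of ionocytes in the Cftr value was not tested.

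Atp1b1 encodes the beta-1 subunit of the Na,K-ATPase, which carries the catalytic subunit to the membrane. It read 12.23, 12.40 and 12.37 in GFP-high cells, against 11.25, 11.32 and 10.85 in GFP-negative cells. All GFP-high arrays were above all GFP-negative ones, and the change was 1.19 ± 0.15 or 2.29-fold (adjusted p = 0.000375 by limma). No other measured subunit of the pump was called higher. Atp1b2, a beta subunit of nervous tissue, fell (6.41 ± 0.03 in GFP-high against 7.51 ± 0.02 in GFP-negative cells; SD, n = 3 each), and Atp1b3 did not pass (-0.04 ± 0.12, adjusted p = 0.862 by limma). Of 9 measured subunits and FXYD regulators besides Atp1b1, none rose, 3 fell and 6 did not pass (median -0.12). The regulators that fell were Fxyd6 (-1.69 ± 0.19) and Fxyd5 (-1.25 ± 0.29).

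The aquaporins among the members had the smallest estimates. Aqp4, a basolateral water channel of airway epithelium also known from astrocytes, read 8.02, 7.44 and 8.24 in GFP-high cells, against 7.20, 6.56 and 6.45 in GFP-negative cells. The lowest GFP-high array (replicate 2) was 0.24 above the highest GFP-negative array (replicate 1), and the rise was 1.16 ± 0.25 or 2.24-fold (adjusted p = 0.00759 by limma). Aqp3, which passes water and glycerol, read 5.67, 5.32 and 5.35 in GFP-high cells, against 4.41, 4.29 and 4.66 in GFP-negative cells. It rose by 0.99 ± 0.15 or 1.99-fold (adjusted p = 0.00103 by limma), with the groups apart by 0.66.

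Aqp1, the water channel of red cells and of lung endothelium, read 7.03, 6.46 and 6.09 in GFP-high cells, against 6.03, 5.40 and 5.78 in GFP-negative cells. GFP-high replicate 3 was only 0.07 above GFP-negative replicate 1, and the rise of 0.79 ± 0.25 (1.73-fold, adjusted p = 0.0403 by limma) was the smallest of the 9. The call was lost without any of 4 arrays: the adjusted p by limma was 0.109 without GFP-high replicate 1, 0.0856 without GFP-high replicate 2, 0.131 without GFP-negative replicate 2 and 0.0783 without GFP-negative replicate 3. It was kept without GFP-high replicate 3 (adjusted p = 0.0142 by limma) and without GFP-negative replicate 1 (0.0420). In a per-gene linear model without moderation of the variance, Aqp1 and Aqp4 also missed the threshold (adjusted p = 0.181 and 0.0856), which leaves 7 of the 9 called. Of 10 endothelial markers 1 rose (Kdr, 3.87 ± 0.13), 1 fell (Vwf, -2.07 ± 0.23) and 8 did not pass, among them Pecam1 (-0.07 ± 0.10) and Cdh5 (0.04 ± 0.13). The mean log2 level of the endothelial list was 5.52 to 5.59 in GFP-high and 5.31 to 5.33 in GFP-negative arrays, and its median log2 fold change was 0.07. Only 2 of 9 erythroid markers were measured, Klf1 and Slc4a1, and neither passed. The part of either cell type in the Aqp1 value was not tested.

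**Figure D2:**
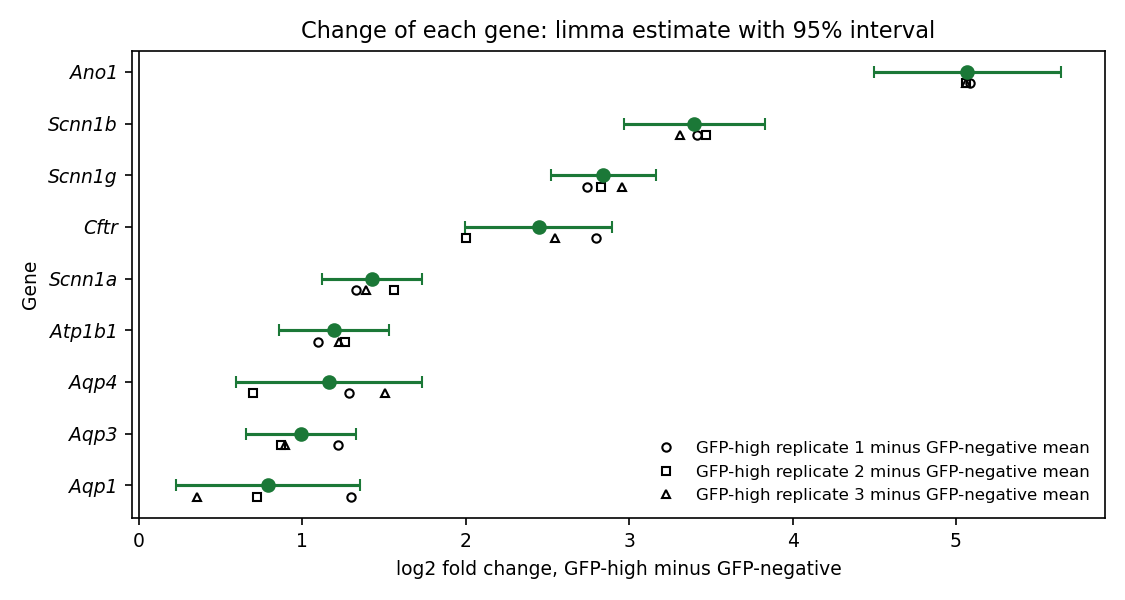
Log2 fold change of each gene (horizontal axis, GFP-high minus GFP-negative, limma estimate in green with its 95% interval), with open symbols for each GFP-high array minus the GFP-negative mean. Ano1 lies furthest out at 5.07, followed by Scnn1b, Scnn1g and Cftr, and the interval for Aqp1, 0.23 to 1.35, comes nearest to 0.

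The arrays within a group did not keep the same order for all 9 members, though some members shared an order. GFP-high replicate 3 was 1.50 above the GFP-negative mean at the median of the 9 genes, and replicates 1 and 2 were 1.33 and 1.56 above it. That array was the highest of the 3 for Aqp4 and Scnn1g and the lowest for Aqp1, Scnn1b and Ano1. In the GFP-negative group, replicate 2 had the highest value for 5 members, namely the 3 ENaC subunits, Cftr and Atp1b1. It also had the highest mean over the club and secretory markers of that group (8.38, against 7.79 and 7.60 in replicates 1 and 3). The same array had the highest alveolar type 2 mean (6.68) of that group. Its neuroendocrine mean (10.07) was the highest as well, though that list moved opposite to the members between the groups. The alveolar type 1 mean was highest in replicate 1 (6.75, against 6.70 in replicate 2). Whether the order of the members follows any of these lists was not tested.

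Several epithelial marker lists moved with the members. Of 10 club and secretory cell markers 9 rose and none fell, led by Hp (5.34 ± 0.14) and Gabrp (5.24 ± 0.22), and their mean log2 level was 11.66 to 11.82 in GFP-high and 7.60 to 8.38 in GFP-negative arrays. Of 10 alveolar type 2 markers 8 rose and none fell, led by Lamp3 (5.76 ± 0.14) and Slc34a2 (5.65 ± 0.19), with mean levels of 9.51 to 10.01 in GFP-high and 6.29 to 6.68 in GFP-negative arrays. All 10 alveolar type 1 markers rose, led by Ager (4.53 ± 0.12) and Aqp5, at 8.79 to 9.08 in GFP-high and 6.69 to 6.75 in GFP-negative arrays. Each of these cell types is known to express ENaC. All 8 measured neuroendocrine markers fell, led by Ncam1 (-2.67 ± 0.35) and Scg3 (-2.62 ± 0.32), with mean levels of 7.39 to 8.37 in GFP-high and 9.94 to 10.07 in GFP-negative arrays. Second, dimmer rows of Syp (0.09) and Uchl1 (0.03) did not pass. The labelled small-cell tumour is defined by neuroendocrine markers. How far the members' changes follow the share of such cells was not tested.

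The marker lists of other cell types held called genes as well, while over all genes 13.0% were called higher and 17.0% lower. Of 5 basal cell markers 1 rose (Krt15, 0.87 ± 0.22) and none fell. Krt14, Trp63 and Dapl1 were dim, with means in both groups below 4.75, the cut for the lowest 30% of genes. Of 7 ciliated cell markers 1 rose (Dynlrb2, 3.10 ± 0.19) and 2 fell (Tppp3, -0.79 ± 0.20, and Rsph1, -0.59 ± 0.17). The row kept for Hydin did not pass (-0.08). A second Hydin row of like brightness gave 0.60 and passed (adjusted p = 0.0191 by limma over every row). Of 9 leukocyte markers none rose and 1 fell (Coro1a, -1.09 ± 0.20). Of 10 fibroblast and smooth muscle markers 1 rose and 1 fell (Dcn, -1.47 ± 0.38), at mean levels of 5.54 to 6.01 in GFP-high and 5.61 to 5.66 in GFP-negative arrays. Smooth muscle is known to express Ano1. Of its markers Acta2 was the one that rose (0.36 ± 0.12), while Myh11 (0.08 ± 0.14) and Cnn1 (-0.06 ± 0.13) did not pass, and their part in the Ano1 value was not tested.

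**Figure D3:**
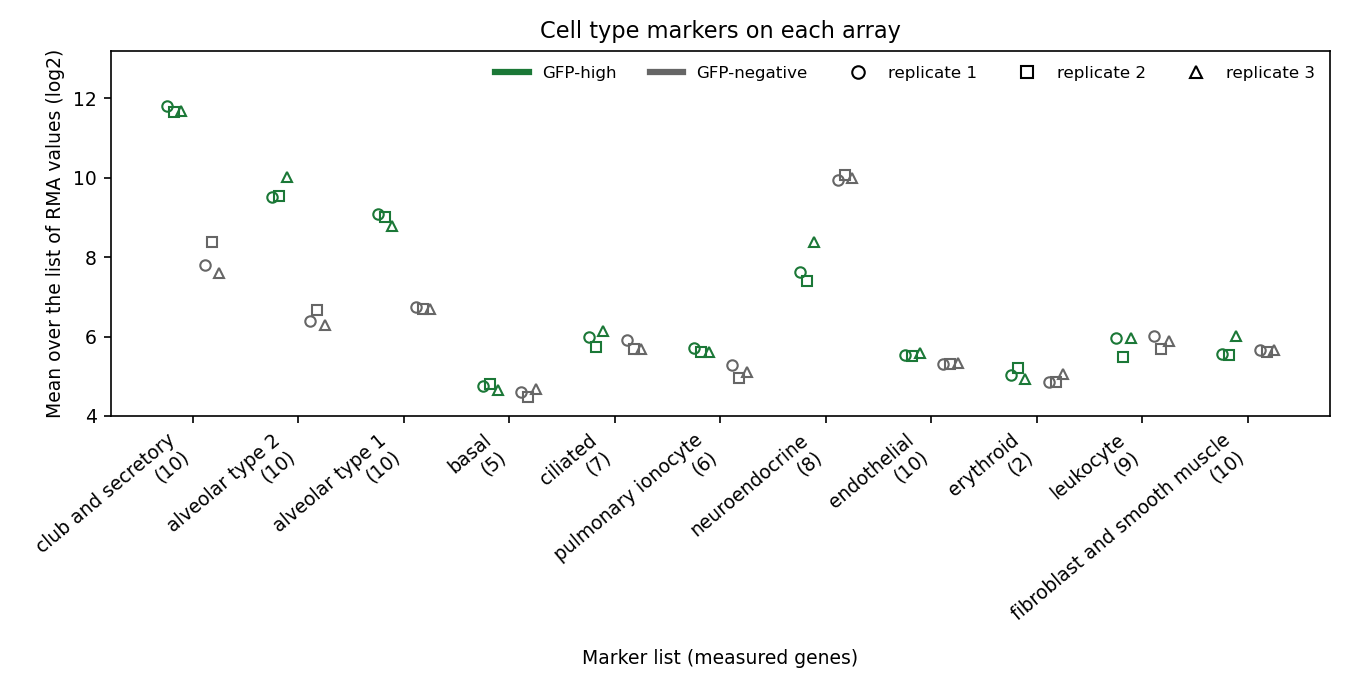
Mean RMA value (log2, vertical axis) over the measured genes of each cell type marker list, on each GFP-high array (green) and each GFP-negative array (grey), with the number of genes in brackets. Club, alveolar type 2 and alveolar type 1 lists were higher on all GFP-high arrays and the neuroendocrine list was lower. The means of the ionocyte (5.62 to 5.70 against 4.95 to 5.28) and endothelial (5.52 to 5.59 against 5.31 to 5.33) lists were also higher on all GFP-high arrays, by less. In each of these lists only 1 gene was called higher, and the median log2 fold change was 0.04 (ionocyte) and 0.07 (endothelial). The leukocyte (5.48 to 5.97 against 5.69 to 6.02) and fibroblast and smooth muscle lists overlapped.

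Related genes of salt and water transport moved in both directions. Across 7 lists of such genes, 90 were measured, of which 23 rose, 17 fell and 50 did not pass, with a median log2 fold change of 0.08. Over all genes 13.0% rose and 17.0% fell. Among 9 further aquaporins 1 rose, Aqp5 (4.22 ± 0.17), the apical water channel of alveolar type 1 cells and glands. It read 10.68, 10.51 and 10.40 in GFP-high cells, against 6.09, 6.20 and 6.65 in GFP-negative cells. The other 8 aquaporins did not pass, and their log2 fold changes ran from -0.01 (Aqp12) to 0.41 (Aqp6).

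The genes that process and control ENaC split. Of 15 measured, 4 rose, 2 fell and 9 did not pass (median -0.01). Nedd4l, the ubiquitin ligase that removes ENaC from the membrane, rose most, to 10.93 ± 0.09 in GFP-high against 8.04 ± 0.33 in GFP-negative cells (SD, n = 3 each; log2 fold change 2.89 ± 0.17). The serine proteases Tmprss2 (2.10 ± 0.19) and Prss8 (0.87 ± 0.17) also rose, and Prss8 is known to activate ENaC by cleavage. The glucocorticoid-induced gene Tsc22d3 rose by 1.45 ± 0.16. Sgk1, the kinase that holds back Nedd4l, had a log2 fold change of -0.09 ± 0.21 (adjusted p = 0.804 by limma). The mineralocorticoid receptor gene Nr3c2 fell (-0.58 ± 0.14), though a second, dimmer row gave -0.10 and did not pass, and the protease Tmprss4 fell as well (-0.59 ± 0.14). Bpifa1, a secreted inhibitor of ENaC, did not pass (1.55 ± 0.55, adjusted p = 0.0641 by limma), but passed without GFP-high replicate 3 (2.28, adjusted p = 0.000542 by limma). Without moderation of the variance 3 of the 15 were called higher and 0 lower, since Prss8 (adjusted p = 0.0551), Tmprss4 (0.0562) and Nr3c2 (0.0542) missed the threshold in that linear model.

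Genes that work beside CFTR were mostly higher. Of 10 measured partners and basolateral potassium channels 6 rose, 1 fell and 3 did not pass (median 0.89). Slc9a3r1 (1.14 ± 0.16) and Slc9a3r2 (1.13 ± 0.13), scaffolds that bind the tail of CFTR, and the adenylate cyclase gene Adcy6 (1.10 ± 0.14) rose. The potassium channel genes Kcnq1 (0.98 ± 0.16), Kcne3 (0.91 ± 0.14) and Kcnn4 (0.88 ± 0.21), whose channels keep up the driving force for chloride exit, also rose. The exception was Prkar2b, a regulatory subunit of protein kinase A, which fell (-1.94 ± 0.29).

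The list of chloride, bicarbonate and proton transporters held some of the largest rises. Of 15 measured 7 rose, 2 fell and 6 did not pass (median 0.44). The median was 0.91 over the 12 that remained with the lowest 30% of genes left out. The sodium bicarbonate cotransporter gene Slc4a5 read 10.58, 10.71 and 10.69 in GFP-high cells, against 5.36, 5.96 and 5.27 in GFP-negative cells, a rise of 5.13 ± 0.18. Its relative Slc4a4 rose by 4.35 ± 0.17 and the carbonic anhydrase gene Car2 by 3.95 ± 0.12. Slc12a2, the basolateral sodium-potassium-chloride cotransporter that supplies chloride for secretion, rose by 1.22 ± 0.16. Slc12a7, of the same gene family, rose by 2.03 ± 0.11. The sodium-proton exchanger gene Slc9a2 fell (-1.75 ± 0.18), and so did Car12 (-0.48 ± 0.14). The call for Car12 (adjusted p = 0.0311 by limma) was lost without any single array other than GFP-high replicate 2, with adjusted p from 0.0526 without GFP-negative replicate 1 to 0.0862 without GFP-negative replicate 2. Slc12a4 did not pass (0.44 ± 0.15, adjusted p = 0.0532 by limma). It passed in some alternative fits, such as after quantile normalization (0.51, adjusted p = 0.0208 by limma).

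Among apical anion channels and exchangers besides Ano1 and Cftr, more genes fell than rose, as over all genes (17.0% lower and 13.0% higher). Of 16 measured 1 rose, 4 fell and 11 did not pass (median 0.03). Clca3a2 (-3.05 ± 0.30) and Clca3a1 (-1.99 ± 0.19), which belong to a family of secreted regulators of chloride conductance, fell most; the genes are close copies whose probes may share signal. Clcn2 (-0.71 ± 0.13) and the exchanger gene Slc26a6 (-0.50 ± 0.14) fell too. The relatives of Ano1 that were measured, Ano2, Ano6, Ano9 and Ano10, did not pass, with log2 fold changes from -0.27 to 0.12. The rise of Slc26a9, a chloride channel that interacts with CFTR, was 0.72 ± 0.23 (adjusted p = 0.0425 by limma) and was lost without any single array other than GFP-negative replicate 2, with adjusted p between 0.0756 without GFP-high replicate 1 and 0.111 without GFP-high replicate 2. It was 0.48 without GFP-negative replicate 3. The call for Slc26a9 was also lost after centring arrays on their medians (adjusted p = 0.0506 by limma). The fall of Slc26a6 was lost without GFP-high replicate 1 or 2 or GFP-negative replicate 1 or 3, with adjusted p from 0.0607 to 0.0863.

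Kinases and channels of cell volume control moved both ways. Of 16 measured 4 rose, 5 fell and 7 did not pass (median -0.01). Among the WNK kinases, which control chloride cotransporters, Wnk4 rose (1.37 ± 0.11), Wnk2 (-1.84 ± 0.22) and Wnk3 (-1.51 ± 0.20) fell, and Wnk1 did not pass (0.11 ± 0.12). Of the subunits of the volume-regulated anion channel, Lrrc8b fell (-1.50 ± 0.14), Lrrc8c (0.79 ± 0.16) and Lrrc8e (0.88 ± 0.15) rose, and Lrrc8a and Lrrc8d did not pass.

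**Figure D4:**
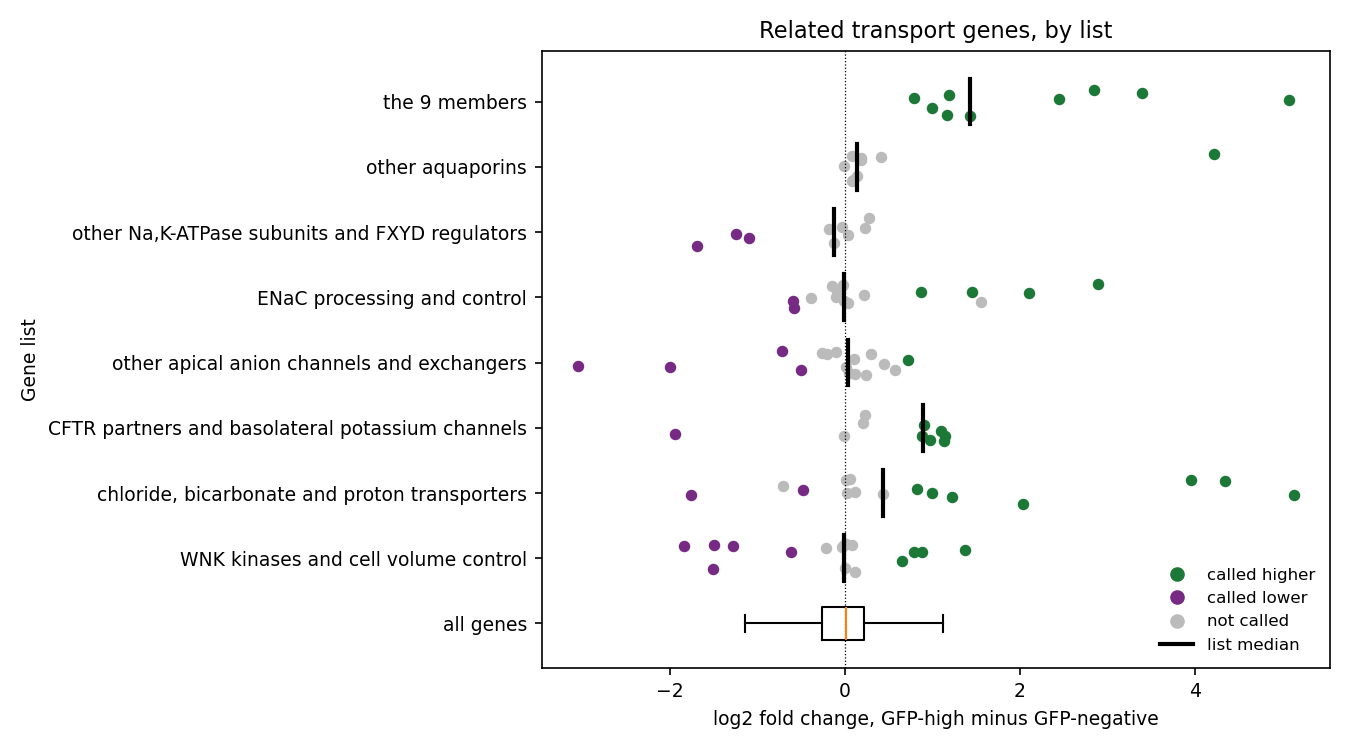
Log2 fold change (horizontal axis, GFP-high minus GFP-negative) of each gene in the 9-member set and in 7 lists of related genes, coloured by call, with a black line at the list median and small vertical jitter. The bottom row shows all 22179 genes as a box of quartiles with whiskers at the 5th and 95th percentiles; the related lists spread to both sides of 0, and the members lie to its right.

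Profiles closest to those of the 3 most changed members were found by the Euclidean distance over the 6 arrays after subtracting each gene's mean, as a description. Nearest to Ano1 were Cyp4f15, Bmp4 and Rassf9, at distances of 0.32, 0.41 and 0.59 on the log2 scale. Bmp4, a secreted growth factor, read 10.53, 10.73 and 10.67 in GFP-high cells, against 4.86, 5.76 and 6.26 in GFP-negative cells, where replicate 1 was lowest and replicate 3 highest, as for Ano1. Nearest to Scnn1b were Cnn2, the mucin gene Muc4 and Ahr, the aryl hydrocarbon receptor gene, at 0.23, 0.24 and 0.27. Nearest to Scnn1g were Plpp3, Pon3 and Tspan9, at 0.15, 0.21 and 0.26.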

How the data were processed

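The deposited log2 expression values were made by the authors with RMA from Affymetrix Mouse Gene 2.0 ST arrays, per the submitters' processing notes. The labels state neither the version of RMA nor the annotation behind it. The log2 scale was read from the values (0.99 to 13.72, array medians 5.30 to 5.43). Of 41344 rows, 23520 name exactly 1 gene in the platform annotation, and the row with the highest mean was kept, giving 22179 genes. GFP-high minus GFP-negative was fitted for all genes with limma 3.58.1 in R 4.3.3 (lmFit and eBayes, no block), and p-values are two-sided, adjusted by Benjamini-Hochberg and called under 0.05. An exact permutation of 3 against 3 cannot go below 0.1, so none is given. No low-value filter was used. Leaving out the lowest 30% of genes by the mean over all arrays (below 4.75) keeps all 9 members, but the GFP-negative means of 2, Cftr and Aqp3, lie below that level. The number of arrays limits the precision. Arrays correlated at 0.987 to 0.991 within groups and 0.918 to 0.940 between them. The fit was tested on simulated data. Members and lists were chosen with earlier results of these data known. Genes named from a list are its most changed called genes (up to 3, or all where 5 or fewer were called) and, from a marker list, the 2 most changed; others were named after their values were seen. Tables and figures used Python 3.11.15, pandas 2.3.3 and matplotlib 3.10.9. Some listed genes are not reported here.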

Additional observations from a re-analysis of the deposited data

How the results depend on the processing

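The fit was repeated after centring arrays on their medians, after quantile normalization, without the lowest 30% of genes, with rows averaged per gene or kept apart, with weighted arrays, with a trended and robust or with no moderation of the variance, with a block for the replicate number, and with each array left out. All 9 genes kept their direction in all 15 alternative fits, and 7 of them kept their call in each, the exceptions being Aqp1 (10 of 15) and Aqp4 (14 of 15). The number of members called higher was 8 to 9 when arrays were left out and 7 without moderation (limma otherwise), and none was called lower in any. Without moderation, related genes that lost their call were, beside those of ENaC control, Fxyd5 (adjusted p = 0.110), Kcnn4 (0.0949), Car4 (0.0534), Car12 (0.0927), Slc26a6 (0.0767) and Slc26a9 (0.180). The count over all genes, 6661, was 5408 to 6116 when arrays were left out and 5054 without moderation. Log2 fold changes ran from 4.82 to 5.38 for Ano1, 3.23 to 3.62 for Scnn1b, 2.27 to 2.67 for Cftr and 0.54 to 1.01 for Aqp1. Deviations of same-numbered arrays correlated at 0.11, -0.03 and -0.002, and not every array matched best with its own number. The labels do not say whether equal numbers share a pool, and no pairing was used. With the replicate number as a block 6172 genes and all 9 members were called. Only 3 arrays per group and the compression of low RMA values limit the precision of the folds.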
